A study of Mus musculus with 48 samples.

Results

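The FoxP, FoxO and FoxK genes considered here are *Foxp1*, *Foxp4*, *Foxo1*, *Foxo3*, *Foxo4*, *Foxk1* and *Foxk2*. They were chosen by gene name from the 56748 genes of the deposited tables, not by a measured value, and all 7 were among the 15637 genes with enough counts to be tested. In all, 45 genes carried a forkhead symbol (Fox, a letter and a number), of which 20 were tested.

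Forkhead factors bind DNA through a winged-helix domain. FoxP proteins are mostly repressors that dimerize through a leucine zipper, and FoxP1 has been studied in muscle wasting. FoxO proteins are held in the cytoplasm by Akt when insulin or IGF1 signals, and when these signals fade they enter the nucleus and activate genes of protein breakdown, autophagy and fuel use in muscle. FoxK proteins respond to the same insulin and mTOR signals and repress autophagy genes in fed muscle.

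RNA was measured in the tibialis anterior (TA), a fast muscle of the lower leg, from male mice, aged 39 to 55 weeks by the labels and methods, although another passage of the study gives younger mice for these data. KPC mice had received murine KPC pancreatic cancer cells in the pancreas and control mice saline, in both WT and FoxP1SkmKO mice, and every mouse was kept in constant darkness before collection at circadian time (CT) 18, 22, 26, 30, 34 or 38. FoxP1SkmKO mice carry homozygous floxed *Foxp1* and ACTA1-Cre, which acts in skeletal muscle fibers, so other cells of the muscle keep the gene. The sample labels give WT mice as C57BL/6J, whereas the design text has them as FoxP1fl/fl mice without Cre, and which of these applies was not settled here. There were 24 groups of 2 mice, or 12 libraries in each of the 4 arms of genotype and condition.

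Total counts per library ran from 14480867 to 20787784. All 8 muscle fiber markers were measured, with a summed level of 39237 to 53144 FPKM (fragments per kilobase of exon, scaled to library size). The library least like the rest was 1 FoxP1SkmKO KPC mouse at CT18, and the next was 1 WT control mouse at CT26. Both WT control libraries at CT26 also stood lowest of 48 in a check of gene length. Some results that rest on them are given below with and without them. Others, among them the list genes, the correlations between genes and the joint fit of single arms, are given only with them. In a bulk tissue, fewer cells of a type and less RNA per cell cannot be told apart.

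The genes lie on 7 chromosomes of mm39. *Foxp1* (ENSMUSG00000030067) spans chr6:98902299-99499682 on the minus strand and *Foxp4* (ENSMUSG00000023991) spans chr17:48178058-48235570 on the minus strand. *Foxo1* (ENSMUSG00000044167) lies at chr3:52175757-52260642, plus strand, *Foxo3* (ENSMUSG00000048756) at chr10:42057837-42152751, minus strand, and *Foxo4* (ENSMUSG00000042903) at chrX:100298134-100304479, plus strand. *Foxk1* (ENSMUSG00000056493) lies at chr5:142387252-142447766 and *Foxk2* (ENSMUSG00000039275) at chr11:121150816-121200722, both on the plus strand. By GENCODE M39, exons of *Foxo1* share 674 of 9270 bases with the opposite-strand gene Gm20402, the largest overlap of the 7, and exons of *Foxo4* and *Foxk1* share none. Since counting by strand is not stated, reads of such partners cannot be separated.

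RefSeq promoter windows around the transcription start (GRCm38.p6) were given for *Foxp1* (3 starts), *Foxp4*, *Foxo1*, *Foxo3* and *Foxk2*. They were searched on both strands for a forkhead core (GTAAACA), an E-box (CACGTG), a D-box (TTANGNAA), a ROR element (TAGGTCA) and a glucocorticoid element. The only match was a D-box, the element of PAR bZIP clock outputs, upstream of 1 of the *Foxp1* starts, and its surroundings are shown because this is the targeted gene and the sole clock-related match. Capitals mark the match in this stretch of the gene's strand, at chr6:99266571-99266600 of GRCm38.p6:

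Foxp1 D-box: agtgtttgtgtTTATGCAAaggggcctctt

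The match starts 74 bases upstream (position -74). Of 32817 promoters, 11.48% hold a D-box, 7.149% an E-box, 3.647% the forkhead core, 2.608% the ROR element and 0.03961% the glucocorticoid element, so a match is a description of the sequence only.

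Per length, *Foxo4* was the most abundant of the 7 in TA muscle and *Foxp1* the least. *Foxo4* averaged 63.0 ± 5.30 FPKM (SD, n = 48), with a range of 50.0 to 74.8. *Foxk2* followed at 11.5 ± 0.725 FPKM and *Foxk1* at 4.49 ± 0.591 FPKM. *Foxo3* averaged 4.27 ± 0.631 FPKM, *Foxo1* 2.57 ± 0.634 FPKM, *Foxp4* 1.90 ± 0.279 FPKM and *Foxp1* 0.595 ± 0.104 FPKM.

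This order held within single libraries for most neighbors. *Foxo4* exceeded *Foxk2*, *Foxk2* exceeded *Foxk1*, *Foxo3* exceeded *Foxo1* and *Foxp4* exceeded *Foxp1* in 48 of 48 libraries. *Foxo1* exceeded *Foxp4* in 42 of 48. *Foxk1* exceeded *Foxo3* in only 28 of 48 libraries, with a ratio of 0.732 to 1.44, so their levels did not differ beyond the spread. The remaining FoxO gene, *Foxo6*, averaged 8.49 FPKM, between *Foxk2* and *Foxk1*, whereas *Foxp2* (0.148 FPKM) and *Foxp3* (0.0585 FPKM) ranked 17 and 22 of the 45 forkhead genes. The 3 most abundant forkhead genes outside these families were *Foxn3* (13.4 FPKM), *Foxj2* (9.22 FPKM) and *Foxj3* (3.56 FPKM).

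**Figure D1:**
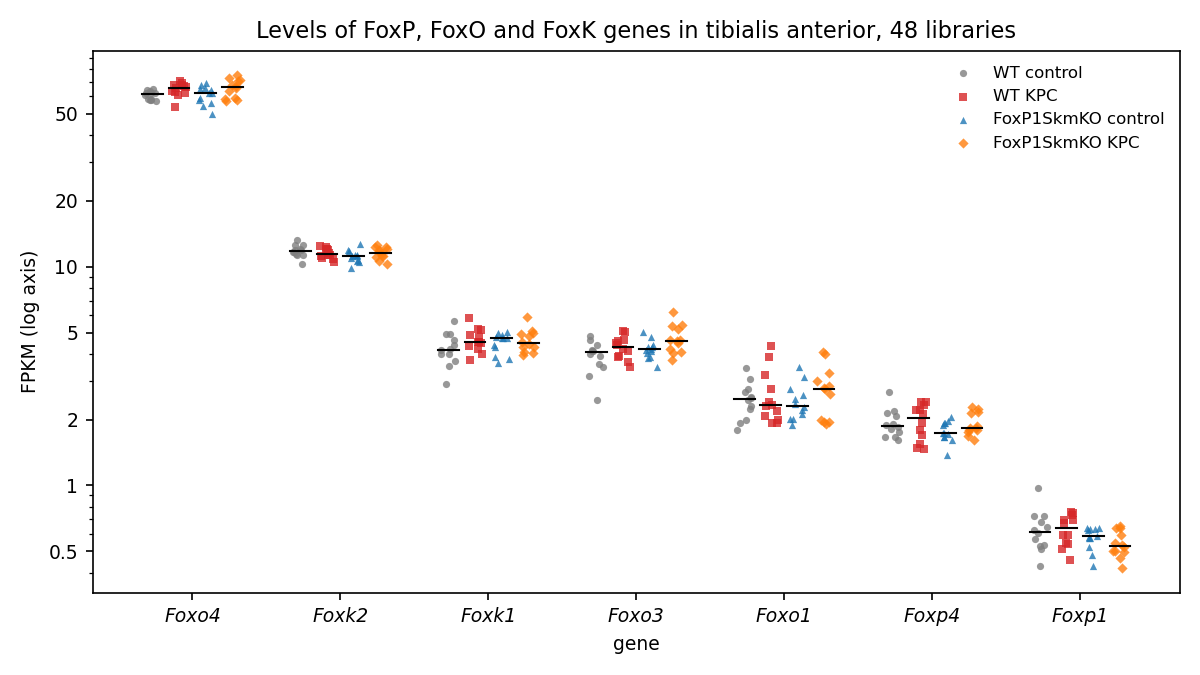
FPKM of each gene (log axis) in the 48 libraries, by arm, with 1 point per mouse and a bar at the median of each arm. *Foxo4* sits between 50.0 and 74.8 FPKM in every library and *Foxp1* between 0.419 and 0.971 FPKM, and the 4 arms overlap for each gene.

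The spread also differed between genes. Over 48 libraries the coefficient of variation was 8.42% for *Foxo4* and 6.30% for *Foxk2*, against 24.6% for *Foxo1* and 17.4% for *Foxp1*. *Foxp1* had the fewest reads of the 7, a median of 137 per library (87 to 216).

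*Foxp1* is the gene floxed in FoxP1SkmKO mice and was measured as a whole, so reads of the deleted exons could not be set apart from the rest. Its FPKM was 0.430, 0.615 and 0.971 (lowest, median, highest of 12) in WT control mice and 0.430, 0.585 and 0.642 in FoxP1SkmKO control mice. In KPC mice it was 0.454, 0.636 and 0.757 in WT and 0.419, 0.531 and 0.653 in FoxP1SkmKO muscle. Every arm overlapped every other, and transcripts of the gene were therefore measured in all FoxP1SkmKO libraries.

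Averaged over the 6 times, the difference of FoxP1SkmKO from WT in *Foxp1* was -0.11 log2 (SE 0.070, adjusted p = 0.459) in control mice and -0.20 log2 (SE 0.071, adjusted p = 0.246) in KPC mice. Neither passed the threshold of a Benjamini-Hochberg adjusted p under 0.05 over all genes in edgeR's quasi-likelihood test, which is what "called" means below. Genotype labels were therefore used as given, since the level of the targeted gene neither bore them out nor went against them. KPC against control was 0.0072 log2 in WT and -0.09 log2 in FoxP1SkmKO mice for *Foxp1* (adjusted p = 0.984 and 0.686).

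By circadian time, *Foxp1* in WT control mice was highest at CT30 (0.971 and 0.728 FPKM) and lowest at CT26 (0.511 and 0.430). At CT30 WT KPC mice measured 0.677 and 0.596 FPKM, below both controls, a difference of -0.42 log2 (SE 0.17, adjusted p = 0.909). At CT38 both WT KPC mice (0.693 and 0.748 FPKM) lay above both controls (0.647 and 0.571), and both FoxP1SkmKO KPC mice (0.496 and 0.503) lay below theirs (0.521 and 0.642). None of the 12 *Foxp1* comparisons by time was called.

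*Foxp4*, a FoxP paralog that can dimerize with FoxP1, measured 1.62, 1.87 and 2.67 FPKM (lowest, median, highest) in WT control mice and 1.46, 2.02 and 2.42 FPKM in WT KPC mice. FoxP1SkmKO mice gave 1.37, 1.73 and 2.05 FPKM without and 1.61, 1.83 and 2.29 FPKM with tumors. The averaged differences were 0.03 log2 for KPC in WT (95% interval -0.13 to 0.19), 0.11 log2 for KPC in FoxP1SkmKO (-0.05 to 0.27) and -0.12 log2 for FoxP1SkmKO against WT controls (-0.28 to 0.04).

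Across the 7 genes and the 5 averaged contrasts, 0 of 35 tests were called by edgeR, 9 had an unadjusted p under 0.05, and DESeq2 and limma called 0 as well. Of all genes tested, 1.79% were called for KPC in WT, 0.428% for KPC in FoxP1SkmKO, 0% for the difference of these effects, 3.44% for FoxP1SkmKO against WT in control mice and 0.32% for the same in KPC mice. Of all 15637 genes, 2370, 1936, 1020, 2682 and 1688 had an unadjusted p under 0.05 in these 5 contrasts, in the same order. For the difference of effects edgeR called 0 of 15637 genes. With so few genes called, 0 of 7 is close to the share among all genes.

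**Figure D2:**
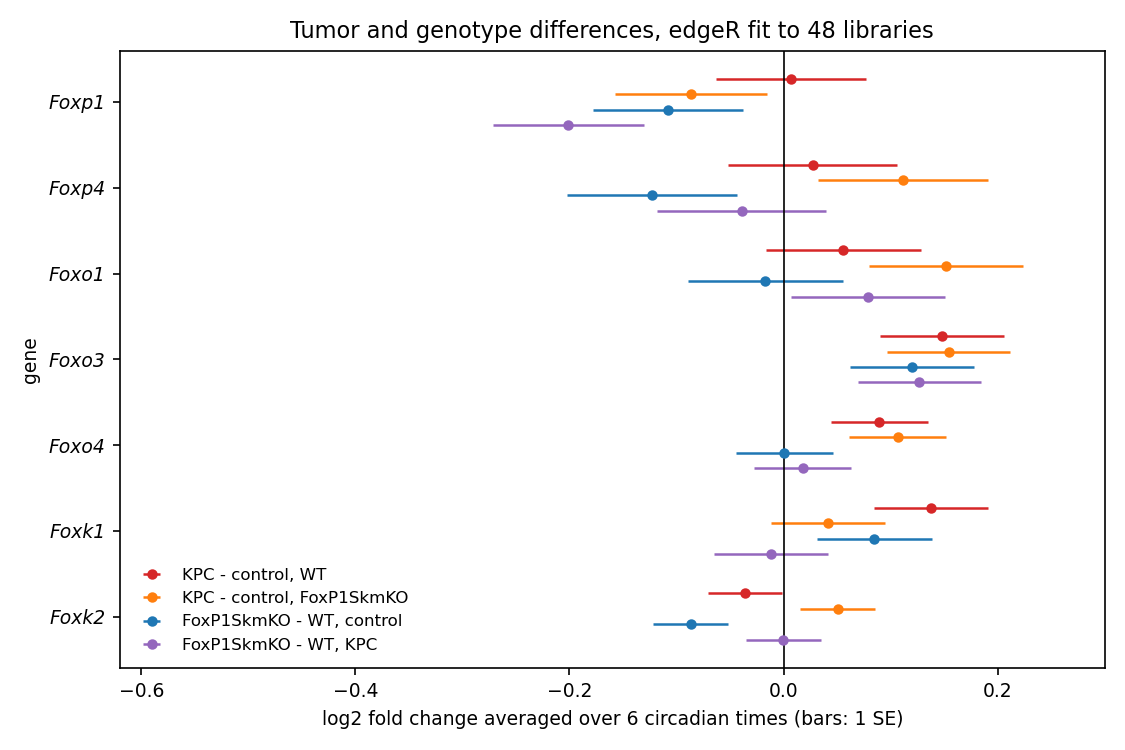
Log2 fold change of each gene averaged over 6 circadian times (x axis, bars of 1 SE) for KPC against control in each genotype and FoxP1SkmKO against WT in each condition. The *Foxo3* estimates all lie right of 0, between 0.12 and 0.15, the *Foxp1* estimate in KPC mice is the lowest at -0.20, and no point passed the adjusted threshold.

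*Foxo3*, a main activator of autophagy and ubiquitin ligase genes in muscle, measured 2.47, 4.05 and 4.81 FPKM in WT control mice and 3.49, 4.28 and 5.06 FPKM in WT KPC mice. FoxP1SkmKO mice gave 3.48, 4.19 and 5.03 FPKM as controls and 3.74, 4.58 and 6.19 FPKM with tumors. KPC against control was 0.15 log2 in WT (SE 0.058, adjusted p = 0.197) and 0.15 log2 in FoxP1SkmKO mice (SE 0.057, adjusted p = 0.231). The estimate was positive at 6 of 6 times in FoxP1SkmKO mice (0.00 to 0.24 log2) and at 3 of 6 in WT mice (-0.04 to 0.52 log2). With CT26 left out of the average, the WT estimate was 0.07 log2 (adjusted p = 0.717).

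*Foxo1*, which drives many of the same genes and is itself induced by fasting and glucocorticoids, measured 1.78, 2.49 and 3.46 FPKM in WT control and 1.93, 2.33 and 4.34 FPKM in WT KPC mice. In FoxP1SkmKO mice it measured 1.89, 2.31 and 3.49 FPKM in controls and 1.92, 2.76 and 4.06 FPKM with tumors. KPC against control was 0.06 log2 in WT (SE 0.072, adjusted p = 0.780) and 0.15 log2 in FoxP1SkmKO mice (SE 0.072, adjusted p = 0.381). The KPC arms were the more variable, with a coefficient of variation of 30.3% and 27.1% against 19.4% and 19.8% in controls.

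*Foxo4*, the X-linked FoxO factor, measured 57.0, 61.5 and 64.5 FPKM in WT control and 53.7, 65.8 and 70.8 FPKM in WT KPC mice. FoxP1SkmKO mice gave 50.0, 62.0 and 68.9 FPKM without and 57.4, 66.3 and 74.8 FPKM with tumors. KPC against control was 0.09 log2 in WT (SE 0.045, adjusted p = 0.349) and 0.11 log2 in FoxP1SkmKO mice (SE 0.045, adjusted p = 0.316). FoxP1SkmKO against WT controls was 0.00 log2, with a 95% interval of -0.09 to 0.09. *Foxo6*, named for comparison, had estimates of the opposite sign for KPC, -0.32 log2 in WT (adjusted p = 0.101) and -0.29 log2 in FoxP1SkmKO mice (adjusted p = 0.183).

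*Foxk1* and *Foxk2* encode the FoxK repressors. *Foxk1* measured 2.92, 4.17 and 5.65 FPKM in WT control and 3.73, 4.54 and 5.80 FPKM in WT KPC mice, a KPC difference of 0.14 log2 (SE 0.054, adjusted p = 0.190). Without CT26 this estimate was 0.05 log2 (adjusted p = 0.815). In FoxP1SkmKO mice *Foxk1* measured 3.64, 4.71 and 5.03 FPKM in controls and 3.96, 4.49 and 5.86 FPKM with tumors, a difference of 0.04 log2 (SE 0.053, adjusted p = 0.825).

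*Foxk2* was the least variable of the 7. It measured 10.3, 11.8 and 13.3 FPKM in WT control, 10.5, 11.4 and 12.4 FPKM in WT KPC, 9.83, 11.2 and 12.6 FPKM in FoxP1SkmKO control and 10.3, 11.6 and 12.5 FPKM in FoxP1SkmKO KPC mice. KPC against control was -0.04 log2 in WT (95% interval -0.11 to 0.04) and 0.05 log2 in FoxP1SkmKO mice (-0.02 to 0.12). FoxP1SkmKO controls were lower than WT controls by an estimate of -0.09 log2 (SE 0.035, adjusted p = 0.177).

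Some markers of other cell types differed between KPC and control mice. The summed level of 6 neutrophil markers had a median of 0.411 FPKM (range 0.0486 to 1.5004) in WT control and 1.88 FPKM (0.733 to 3.53) in WT KPC mice, and of 0.289 (0 to 2.31) and 1.06 FPKM (0.193 to 21.2) in FoxP1SkmKO mice. Only 2 of these 6 had enough counts to be tested, which high levels in KPC libraries alone could provide. Of these 2, 2 were called higher in WT and 0 in FoxP1SkmKO mice, with a median difference of 2.44 and 2.76 log2. Over all genes, 1.79% and 0.428% were called in either direction. Since the filter could favor markers that are high in KPC mice, these calls are a description only. The 6 fibro-adipogenic markers had a median sum of 57.7 FPKM (30.9 to 86.6) in WT control and 36.1 FPKM (19.9 to 80.4) in WT KPC mice, with 2 of 6 called lower, and of 53.4 (28.8 to 74.9) and 30.8 FPKM (24.1 to 80.6) in FoxP1SkmKO mice, with 1 of 6 called lower. Of 7 capillary endothelium markers, 1 was called lower in WT and 0 in FoxP1SkmKO mice. For muscle fibers, macrophages, lymphocytes and adipocytes, 0 markers were called for KPC averaged over times in either genotype. The same held for satellite cells, Schwann cells, smooth muscle and pericytes, and erythroid cells. No marker was at 0 in all 48 libraries. Their part in the forkhead estimates was not tested.

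At single circadian times, 2 of 84 tests of KPC against control (7 genes, 12 comparisons of 2 against 2 mice) were called, both in WT mice at CT26. There, 7.17% of all genes were called, and 4.64% were called higher in KPC mice. In the other 11 comparisons edgeR called 0 of the 7 genes. The share of all genes called there was 0.0064% at CT30, 0.0256% at CT38 and 0% at CT18, CT22 and CT34 in WT mice, and 0.0192% at CT18, 0.0384% at CT26, 0.0064% at CT38 and 0% at CT22, CT30 and CT34 in FoxP1SkmKO mice.

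*Foxk1* at CT26 measured 2.92 and 3.51 FPKM in the 2 WT control mice and 4.47 and 5.19 FPKM in the 2 WT KPC mice, a difference of 0.58 log2 (SE 0.13, adjusted p = 0.00578). *Foxo3* measured 2.47 and 3.16 FPKM in the same controls and 3.90 and 4.18 FPKM in the KPC mice, a difference of 0.52 log2 (SE 0.15, adjusted p = 0.0248). For both genes the 2 control values were the lowest of all 48 libraries. The other 10 WT controls measured 3.71 to 5.65 FPKM for *Foxk1* and 3.47 to 4.80 FPKM for *Foxo3*, so the KPC values lay within the range of WT controls at other times.

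In FoxP1SkmKO mice at CT26, the *Foxo3* values overlapped, whereas both KPC values of *Foxk1* lay above both controls and included the highest of all 48 libraries. *Foxo3* measured 4.10 and 3.83 FPKM in controls and 4.01 and 4.07 FPKM in KPC mice (0.02 log2, SE 0.14, adjusted p = 0.977). *Foxk1* measured 4.70 and 4.72 FPKM in controls and 4.97 and 5.86 FPKM in KPC mice (0.20 log2, SE 0.13, adjusted p = 0.675). The difference of the KPC effect between genotypes was 0.50 log2 for *Foxo3* (SE 0.20, adjusted p = 0.337) and 0.38 log2 for *Foxk1* (SE 0.19, adjusted p = 0.442). Neither was called, beside 0.345% of all genes. At the other times edgeR called the difference for 0 of the 7 genes, beside 0.0064% of all genes at CT22 and at CT34 and 0% at CT18, CT30 and CT38.

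Both calls depended on single mice. Without WT control replicate 1 at CT26 the estimates were 0.45 log2 for *Foxk1* (adjusted p = 0.245) and 0.34 log2 for *Foxo3* (adjusted p = 0.452), and 89 genes in all were called instead of 1121. Without WT KPC replicate 2 neither was called (adjusted p = 0.103 and 0.152), and without WT KPC replicate 1 *Foxk1* was (adjusted p = 0.0117) and *Foxo3* was not (adjusted p = 0.0702). Without control replicate 2 both were (0.73 and 0.71 log2, adjusted p = 0.00477 and 0.00962).

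Other measures differed in the same 2 control libraries. The correlation of each library's deviations with log2 gene length was -0.220 and -0.204 there, the lowest of 48, and *Foxo3* and *Foxk1* are longer than 82.0% and 82.1% of tested genes. With the length trend removed, *Foxk1* was 0.45 log2 (adjusted p = 0.0461) and *Foxo3* 0.39 log2 (adjusted p = 0.136), and 404 genes were called. The 5 erythroid markers summed to 330 and 246 FPKM in these libraries against 81.7 to 223 FPKM in the other WT controls, and none of the 5 was called. The 8 muscle fiber markers summed to 53144 and 48556 FPKM, against 42634 to 50374 FPKM, and to 48363 and 47784 FPKM in the KPC mice at CT26. Of these 8, 2 were called higher in KPC mice, although the sums over all 8 were lower there than in controls. The 5 adipocyte markers summed to 3.51 and 7.86 FPKM in the controls and 0.488 and 4.14 FPKM in the KPC mice, a median difference of -1.39 log2 with 0 of 5 called. The part of length and of cell makeup in the CT26 result was not tested beyond this.

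**Figure D3:**
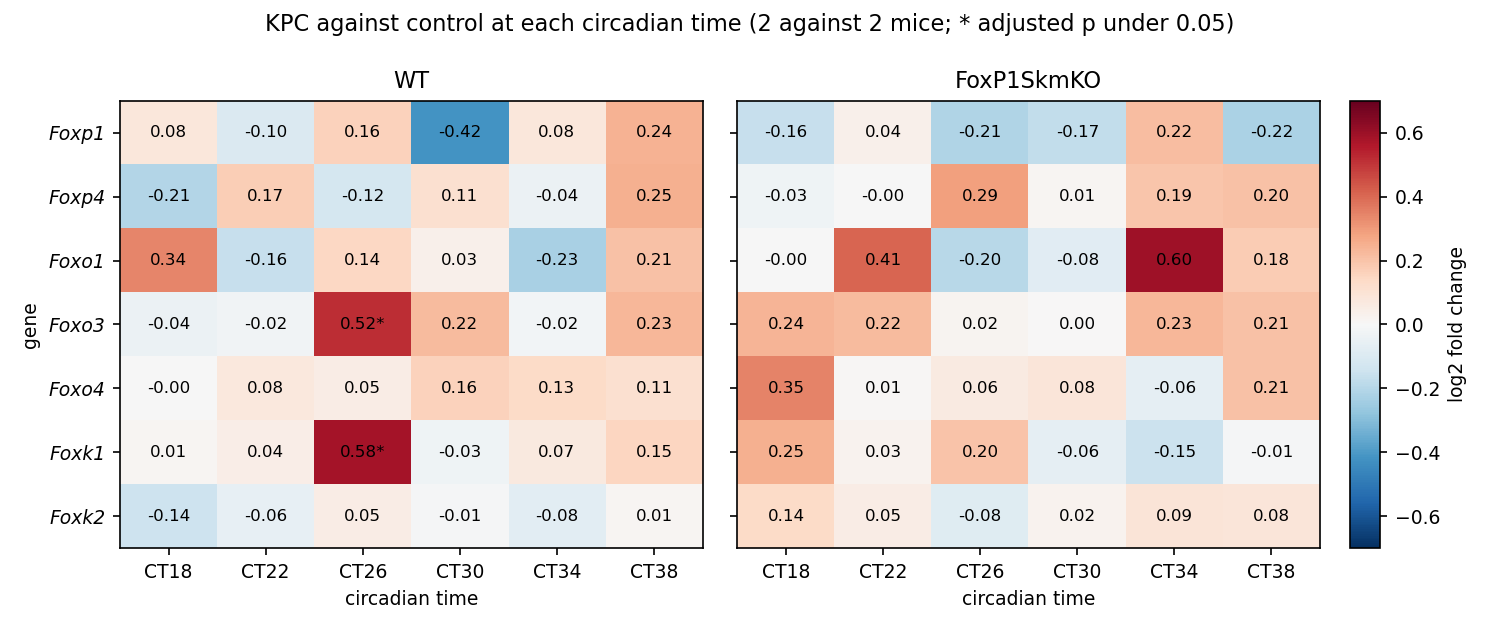
Log2 fold change of KPC against control mice for each gene (rows) and circadian time (columns) in WT (left) and FoxP1SkmKO mice (right), 2 against 2 mice in each cell, with an asterisk where the adjusted p was under 0.05. The 2 asterisks are *Foxo3* (0.52) and *Foxk1* (0.58) in WT mice at CT26, and the largest value without one is *Foxo1* in FoxP1SkmKO mice at CT34 (0.60).

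Of the 84 comparisons by time, the KPC pair lay above the control pair in 31, below it in 8 and overlapped it in 45, by FPKM. The share of all genes with the KPC pair above was taken only for WT mice at CT26. The counts of 31 and 8 are therefore a description only. Over all genes, the pairs did not overlap in 35.9%, 33.7%, 49.1%, 34.9%, 37.8% and 40.3% of genes in WT mice at CT18 to CT38, and in 40.8%, 35.2%, 38.5%, 35.9%, 34.3% and 35.6% in FoxP1SkmKO mice, so such separation was common. At CT26 in WT mice 4 of 7 genes had both KPC values above both controls by FPKM, against 25.7% of all genes. Among these, *Foxp1* and *Foxo1* were near ties. The lower KPC and higher control values were 0.51102 and 0.511 FPKM for *Foxp1* and 1.9312 and 1.9307 FPKM for *Foxo1*. On normalized log2 counts both overlapped, with 2.8436 against 2.847 for *Foxp1* and 4.0923 against 4.1003 for *Foxo1*. The share of all genes was not taken on that scale, so the 4 of 7 is a description only. *Foxo1* in FoxP1SkmKO mice at CT34 measured 2.36 and 2.27 FPKM in controls and 3.01 and 3.97 FPKM in KPC mice (0.60 log2, SE 0.18, adjusted p = 1). At CT22 it measured 2.13 and 2.01 FPKM in controls and 2.78 and 2.75 FPKM in KPC mice (0.41 log2, SE 0.18, adjusted p = 0.990). *Foxo4* in FoxP1SkmKO mice at CT18 measured 56.1 and 50.0 FPKM in controls and 59.2 and 74.8 FPKM in KPC mice (0.35 log2, SE 0.11, adjusted p = 0.152), and the highest of these values came from the library least like the rest. Without that library the 3 remaining mice measured 50.0 to 59.2 FPKM.

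Time of day was examined next. A sinusoid with a period of 24 h, averaged over the 4 arms, was called for 4 of 7 genes, beside 34.8% of all genes tested. Amplitude is the distance from the fitted mean to the peak on the log2 scale.

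*Foxo1* had the largest rhythm. Over the 8 mice of each time its FPKM was 2.46, 2.76 and 3.88 (lowest, median, highest) at CT18, 1.93, 2.29 and 2.78 at CT22 and 1.78, 1.97 and 2.49 at CT26. It was 1.89, 1.99 and 2.41 at CT30, 2.09, 2.44 and 3.97 at CT34 and 2.60, 3.32 and 4.34 at CT38. All 8 values at CT38 lay above all 8 values at CT26 and at CT30. The fitted amplitude was 0.37 log2, a peak-to-trough ratio of 1.66, with a peak at CT38.9, past the last collection (adjusted p = 1.43e-08).

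*Foxo3* had a smaller swing and was highest at CT18 by its medians. The median FPKM over 8 mice was 4.71 at CT18 (4.21 to 5.34), 4.07 at CT22, 3.96 at CT26 (2.47 to 4.18), 3.93 at CT30, 4.35 at CT34 and 4.496 at CT38 (3.92 to 6.19). The amplitude was 0.18 log2 (ratio 1.28) with a peak at CT38.3 (adjusted p = 5.33e-05). All values at CT18 exceeded all values at CT26, though the lowest CT26 values were the WT controls above. Across the 24 group means *Foxo1* and *Foxo3* had a Pearson r of 0.725, whereas the other pairs of the 7 genes ran from -0.44 to 0.36. These groups share their times and libraries, so r is a description only.

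*Foxk1* and *Foxp4* were called at other times of day. *Foxk1* had a median of 4.97 FPKM at CT30 (4.28 to 5.80) and 4.09 FPKM at CT38 (3.71 to 4.74), with an amplitude of 0.13 log2 and a peak at CT30.7 (adjusted p = 0.00813). *Foxp4* had a median of 2.12 FPKM at CT26 (1.55 to 2.39) and 1.68 FPKM at CT34 (1.37 to 1.78), with an amplitude of 0.13 log2 and a peak at CT21.6 (adjusted p = 0.0288). With each library left out in turn, *Foxo1*, *Foxo3* and *Foxk1* were called in 48 of 48 fits and *Foxp4* in 46. The exceptions were the fits without WT KPC replicate 2 at CT34 (adjusted p = 0.0593) and without FoxP1SkmKO control replicate 1 at CT34 (adjusted p = 0.0589).

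The remaining 3 genes were not called. *Foxp1* had an amplitude of 0.13 log2 with a peak at CT35.7 (adjusted p = 0.0567) and was called in 10 of 48 fits that left out a library, with the lowest adjusted p (0.0221) without WT control replicate 1 at CT30. *Foxk2* (0.05 log2, adjusted p = 0.120) and *Foxo4* (0.05 log2, adjusted p = 0.211) had the smallest amplitudes. *Foxk2* was nevertheless lowest at CT38 in each of the 4 arms, with a median of 10.7 FPKM (9.83 to 11.3) there against 12.3 FPKM (10.7 to 13.3) at CT18.

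**Figure D4:**
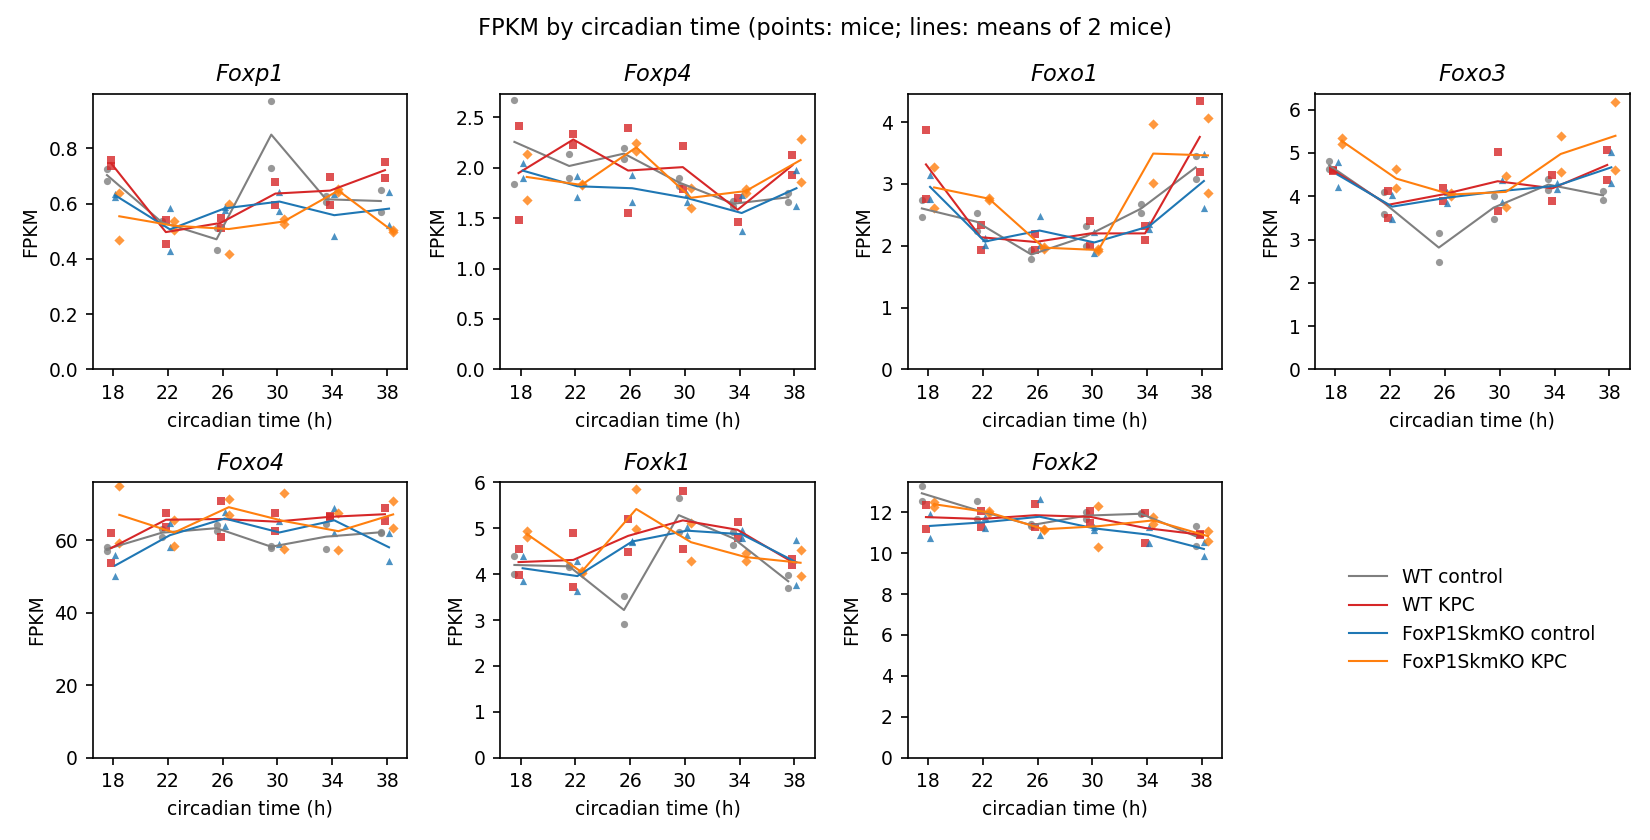
FPKM (y axis, from 0) by circadian time in h (x axis) for each gene, with 1 point per mouse and lines through the means of 2 mice in each arm. *Foxo1* is lowest at CT26 or CT30 and highest at CT34 or CT38 in all 4 arms, and the WT control line dips at CT26 for *Foxo3* and *Foxk1*.

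Leaving out both WT control libraries at CT26 did not end any of the 4 calls. The adjusted p was then 2.70e-07 for *Foxo1*, 6.47e-04 for *Foxo3*, 1.81e-04 for *Foxk1* and 0.0428 for *Foxp4*.

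The rhythm was then compared between arms. The cosine and sine terms of each gene were tested between KPC and control mice in WT and in FoxP1SkmKO muscle, and between FoxP1SkmKO and WT controls. In these tests edgeR called 0 of the 7 genes and 0 had an unadjusted p under 0.05, beside 0%, 0.0512% and 0% of all genes called. In the joint fit, *Foxo1* was called in WT control (adjusted p = 0.0182), WT KPC (0.00141) and FoxP1SkmKO KPC mice (0.00300) and not in FoxP1SkmKO controls (0.0824). In the same arms 11.5%, 7.92%, 4.83% and 5.26% of all genes were called, for WT control, WT KPC, FoxP1SkmKO KPC and FoxP1SkmKO control mice. Its amplitude was 0.34, 0.43, 0.43 and 0.28 log2 in that order, and its peak stayed between CT38.5 and CT39.4. *Foxo3* was called in WT control (0.25 log2, adjusted p = 0.0179) and FoxP1SkmKO KPC mice (0.23 log2, adjusted p = 0.0387), and the other 5 genes in 0 of the 4 arms. The joint fit of single arms was not run without the WT control libraries at CT26. The WT control calls of *Foxo1* and *Foxo3* are therefore given only with them.

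**Figure D5:**
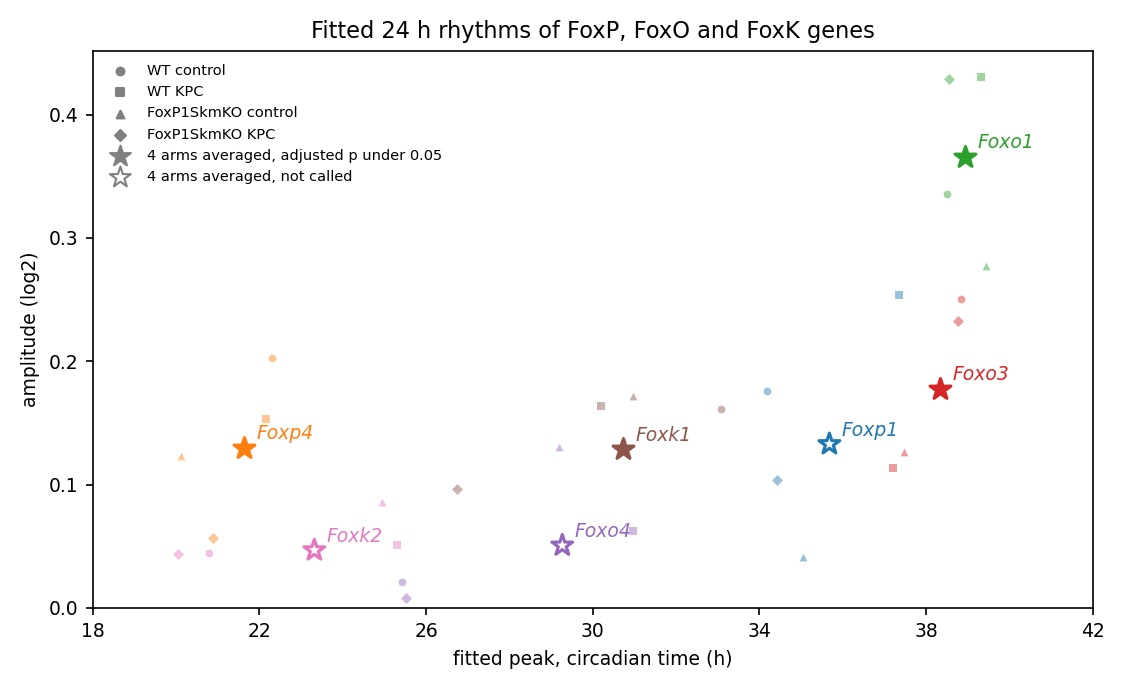
Amplitude (y axis, log2) against fitted peak (x axis, circadian time in h) of each gene, with stars for the average of the 4 arms, filled where the adjusted p was under 0.05, and small symbols for single arms. *Foxo1* (0.37) and *Foxo3* (0.18) peak near CT38 to CT39, *Foxk1* at CT30.7 and *Foxp4* at CT21.6.

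A sinusoid was also fitted to the FPKM of each arm alone, with an unadjusted p under 0.01 taken as rhythmic, the threshold of the study's methods. Only *Foxo1* in WT control mice passed (amplitude 0.584 FPKM around 2.48 FPKM, p = 5.96e-04, n = 12), 1 of 28 tests, beside 4.92% of genes in that arm. The shares of all genes were 4.22%, 4.07% and 2.63% in WT KPC, FoxP1SkmKO control and FoxP1SkmKO KPC mice. *Foxo1* came to p = 0.0185, 0.0230 and 0.0143 in these arms (n = 12 each), with amplitudes of 0.822, 0.495 and 0.792 FPKM. Both the amplitude and the p were larger in the KPC arms than in WT controls, and the test of the difference in rhythm, above, called 0 of the 7 genes. Without the 2 CT26 libraries (n = 10) the WT control p of *Foxo1* was 0.0137, which did not pass, whereas *Foxk1* passed there (p = 0.00983, against 0.249 with them). For *Foxo3* in WT controls the p of this fit was 0.0257 with the 2 libraries and 0.2125 without them. Its amplitude was 0.655 FPKM with them and 0.370 FPKM without them.

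Genes around the FoxO factors were taken from 3 lists. Their values are given only with the WT control libraries at CT26 included. Of 35 regulators of FoxO activity (insulin and IGF1 receptors, PI3K and Akt, 14-3-3 proteins, sirtuins, acetyltransferases), edgeR called 0 for KPC in either genotype, with 9 in WT and 4 in FoxP1SkmKO mice at an unadjusted p under 0.05. Of all 15637 genes, 2370 in WT and 1936 in FoxP1SkmKO mice had such a p. The 4 with the smallest p in WT mice were *Ep300*, an acetyltransferase (0.15 log2, SE 0.041, adjusted p = 0.0523), *Sirt3*, a mitochondrial deacetylase (-0.18 log2, adjusted p = 0.0614), *Mapk8*, the kinase JNK1 (-0.10 log2, adjusted p = 0.211), and *Prmt1*, an arginine methyltransferase (-0.09 log2, adjusted p = 0.229). In FoxP1SkmKO mice they were *Insr*, the insulin receptor (0.13 log2, adjusted p = 0.208), *Irs1*, its substrate (-0.14 log2, adjusted p = 0.364), and the 14-3-3 genes *Ywhab* (-0.07 log2, adjusted p = 0.375) and *Ywhag* (0.07 log2, adjusted p = 0.383). The 14-3-3 gene *Ywhae*, whose protein holds phosphorylated FoxO in the cytoplasm, fell by 0.14 log2 in FoxP1SkmKO against WT controls (adjusted p = 0.0117), the only regulator called there (2.86%, beside 3.44% of all genes).

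Of 45 FoxO target genes, 1 was called for KPC in WT (2.22%, beside 1.79% of all genes) and 0 in FoxP1SkmKO mice. An unadjusted p under 0.05 was found for 13 in WT and 16 in FoxP1SkmKO mice. Of all 15637 genes, 2370 in WT and 1936 in FoxP1SkmKO mice had such a p. The median over the 45 was 0.08 log2 in WT and 0.09 log2 in FoxP1SkmKO mice, beside 0.00 log2 over all genes in each. *Klf15*, a regulator of amino acid use that also answers to glucocorticoids, measured 9.48, 12.4 and 16.8 FPKM in WT control and 10.9, 14.9 and 23.0 FPKM in WT KPC mice and rose by 0.32 log2 (SE 0.074, adjusted p = 0.0188). Its median was also higher in FoxP1SkmKO KPC (16.67 FPKM) than FoxP1SkmKO control mice (13.35 FPKM), where it was not called. *Pdk4*, which limits glucose oxidation, measured 40.3, 54.0 and 103.6 FPKM in WT control and 48.5, 77.05 and 157.4 FPKM in WT KPC mice (0.58 log2, SE 0.19, adjusted p = 0.113). The *Pdk4* median was 83.4 FPKM in FoxP1SkmKO control and 116.8 FPKM in FoxP1SkmKO KPC mice. *Igfbp5* (-0.22 log2, adjusted p = 0.104) and *Pink1*, a mitophagy kinase (0.13 log2, adjusted p = 0.124), completed the 4 with the smallest p in WT mice.

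In FoxP1SkmKO mice the 4 targets with the smallest p were *Fbxo31* (0.18 log2, adjusted p = 0.111), *Map1lc3a* (0.15 log2, adjusted p = 0.123), *Eif4ebp1*, a brake on translation (0.25 log2, adjusted p = 0.155), and *Fbxo32*. *Fbxo32*, the atrophy ubiquitin ligase atrogin-1, measured 20.7, 27.6 and 40.0 FPKM in FoxP1SkmKO control and 21.8, 39.1 and 61.5 FPKM in FoxP1SkmKO KPC mice (0.47 log2, SE 0.16, adjusted p = 0.163), and these ranges overlapped. Between FoxP1SkmKO and WT control mice, *Pdk4* (0.76 log2, SE 0.19, adjusted p = 0.0184) and *Cdkn1a*, a cell-cycle inhibitor (0.79 log2, SE 0.20, adjusted p = 0.0219), were higher, 2 of 45 (4.44%, beside 3.44% of all genes).

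Of 33 tested partners of FoxP and FoxK proteins (co-repressors, deacetylases, signaling partners), 1 was called for KPC in WT mice (3.03%, beside 1.79% of all genes), *Hdac1*, a histone deacetylase. It measured 2.36, 2.95 and 3.47 FPKM in WT control and 2.19, 2.67 and 2.78 FPKM in WT KPC mice and fell by 0.20 log2 (SE 0.049, adjusted p = 0.0274). Its median was also lower in FoxP1SkmKO KPC (2.672 FPKM) than FoxP1SkmKO control mice (2.92 FPKM). *Ncor1* (0.11 log2, adjusted p = 0.0801) and *Asxl1* (0.18 log2, adjusted p = 0.107) followed in WT mice. In FoxP1SkmKO mice edgeR called 0 of 33. An unadjusted p under 0.05 was found for 6 partners in WT and 3 in FoxP1SkmKO mice, beside 2370 and 1936 of all 15637 genes. The smallest p in FoxP1SkmKO mice were those of *Mta1*, *Mef2d*, *Ogt* and *Srf* (adjusted p = 0.254 to 0.411). *Asxl1* was higher by 0.21 log2 in FoxP1SkmKO than WT controls (SE 0.058, adjusted p = 0.0355), the only partner called there (3.03%, beside 3.44% of all genes). It measured 1.63, 2.33 and 3.30 FPKM in WT control and 2.39, 2.79 and 3.38 FPKM in FoxP1SkmKO control mice. Its lowest value was 2.37 FPKM in WT KPC and 2.615 FPKM in FoxP1SkmKO KPC mice. The part of the WT control libraries at CT26 in this difference is not reported here. The difference of the KPC effect between genotypes was called for 0 genes of the 3 lists by edgeR, with 2 regulators, 1 target and 0 partners at an unadjusted p under 0.05. Of all 15637 genes, 1020 had such a p.

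The 24 h sinusoid over 48 libraries was called for 17 of 35 regulators (48.6%), 29 of 45 targets (64.4%) and 20 of 33 partners (60.6%), beside 34.8% of all genes. The median amplitude was 0.07, 0.14 and 0.08 log2 in the 3 lists, beside 0.11 log2 over all genes. *Pik3r1*, the regulatory subunit of PI3K, had an amplitude of 0.61 log2 with a peak at CT39.9 (adjusted p = 3.71e-16), close to the peak of *Foxo1*. *Sirt1* (0.27 log2, CT36.3), *Igf1r* (0.26 log2, CT33.6) and *Irs1* (0.25 log2, CT20.5) were the next 3 regulators by p. Among targets, *Glul*, glutamine synthetase, had an amplitude of 0.72 log2 with a peak at CT37.5, and the others were *Cited2* (0.39 log2, CT27.8), *Gabarapl1* (0.23 log2, CT32.1) and *Fbxo30* (0.21 log2, CT32.1). Among partners they included *Sox9* (0.45 log2, CT38.7), *Srf* (0.15 log2, CT25.1) and *Ctbp2* (0.16 log2, CT20.3). Each of these had an adjusted p of 2.96e-04 or less.

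The genes whose pattern was most like each factor were found by Pearson r of log2 levels over the 24 group means among 12632 genes. For *Foxo1* they were *Slc7a8* (0.893), *Zbtb16* (0.870) and *Pik3r1* (0.869). For *Foxo3* they were *Ubr2* (0.880), *Fry* (0.875) and *Plin4* (0.853), and for *Foxo4* they were *Kif1c* (0.883), *Cbx7* (0.872) and *Gsk3a* (0.868). *Foxk1* was most like *Arel1* (0.907), *Asxl1* (0.860) and *Rbm33* (0.857), and *Foxk2* most like *Mapk14* (0.778), *Stim1* (0.775) and *Exph5* (0.760). For *Foxp1* they included *Csnk1a1* (0.748) and *Bche* (0.733), and for *Foxp4* they were *Pigs* (0.746), *Hsf1* (0.738) and *C1qc* (0.729). These are the largest of many values over groups that share libraries, times and depth, and are given as a description.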

How the data were processed

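Per the labels, TA muscle RNA was sequenced from 48 mice in 24 groups of 2. The authors deposited counts per gene in 12 comparison tables and FPKM, which they made from the counts, gene lengths and library sizes. Their methods name STAR and HTSeq on mm39, whereas the submitters' processing notes list HISAT2 2.0.5 and DESeq2 1.20.0. The tables' size-factor-normalized values and the authors' comparison columns (log2 fold change, p-value, adjusted p-value) were not used. Where a gene was absent from a comparison table, its count was recovered from FPKM (at most 0.00642% of a library's reads). The totals above limit precision at low levels, most for *Foxp1*.

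Counts were fitted with edgeR 4.0.16 (R 4.3.3): filterByExpr, TMM, 1 coefficient per group, quasi-likelihood tests (prior degrees of freedom 8.61) and contrasts averaged over the 6 times. Rhythm used cosine and sine terms of 24 h in each arm. P-values were adjusted over 15637 genes by Benjamini-Hochberg. Intervals are 95% and use moderated degrees of freedom. FPKM of each arm were fitted by least squares (Python 3.11.15, scipy 1.17.1). Both procedures were tested on simulated data. No batch is named in the labels.

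The genes and the 3 lists were chosen with earlier results of these data known. Genes were named by rule: all 7 genes in every comparison, *Foxp2*, *Foxp3* and *Foxo6*, the 3 most abundant other forkhead genes, and 4 per list by smallest p in each KPC contrast and in the rhythm. Some genes that this rule names are not reported here. List genes called in the genotype contrasts, *Foxo6* in the KPC contrasts and the per-time values singled out were chosen after their values were seen. Leaving both WT control libraries at CT26 out of the rhythm fits was also chosen after the data were seen. Alternatives were no filter, RLE factors, DESeq2 1.42.0, limma 3.58.1 on log2(FPKM + 1) and log2(FPKM + 0.1), removal of the length trend, a replicate block, each time or replicate left out, and fits to 4 libraries. Fits without 1 replicate kept the filter and dispersion trend of all 48. Same-numbered KPC and control mice did not deviate together (12 correlations of -0.101 to 0.0854), so replicate numbers were not taken as pairs. Replicates differed by more than counting error in every group (chi-square per degree of freedom of at least 5.15).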

Additional observations from a re-analysis of the deposited data

Results flagged for a closer look

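In 5 cases the KPC pair lay, by FPKM, wholly above its controls in one genotype and wholly below them in the other. The share of all genes with such opposite pairs was not computed. Separation within 1 genotype was common, at 33.7% to 49.1% of all genes, so these cases are a description only. The difference between genotypes was not called by edgeR in any of the 5. *Foxo3* at CT18 was -0.043 log2 in WT and 0.24 log2 in FoxP1SkmKO mice (difference -0.28 log2, SE 0.20, adjusted p = 0.634). The WT pairs of *Foxo3* were a near tie, with 4.6116 FPKM in KPC against 4.621 FPKM in control mice. *Foxk2* at CT18 was -0.14 log2 in WT and 0.14 log2 in FoxP1SkmKO mice (difference -0.28 log2, SE 0.12, adjusted p = 0.408). *Foxo1* at CT26 was 0.14 log2 in WT and -0.20 log2 in FoxP1SkmKO mice (difference 0.34 log2, SE 0.26, adjusted p = 0.655). Its WT pairs were a near tie, with 1.9312 FPKM in KPC against 1.9307 FPKM in control mice. On normalized log2 counts they overlapped (4.0923 against 4.1003).

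*Foxo1* at CT34 was -0.23 log2 in WT and 0.60 log2 in FoxP1SkmKO mice (difference -0.82 log2, SE 0.25, adjusted p = 0.9999), the largest difference of the 42 tested by time. *Foxp1* at CT38 was 0.24 log2 in WT and -0.22 log2 in FoxP1SkmKO mice (difference 0.47 log2, SE 0.24, adjusted p = 1).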

How the results depend on the processing

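The 0 calls of the 5 averaged contrasts and of the rhythm differences stood under every alternative run, and the 4 calls of the pooled rhythm stood under all but the fits without 1 replicate (3 to 5 genes called). Calls by circadian time were 2 in the main fit, 4 with no filter (adding *Foxo1* at CT34, adjusted p = 0.00861, and *Foxo4* at CT18, adjusted p = 0.0356, in FoxP1SkmKO mice), and 1 (*Foxk1*) with the length trend removed, with DESeq2 on 4 libraries and with edgeR on 4 libraries, where *Foxo3* had an adjusted p of 0.136, 0.0625 and 0.0742. Leaving out 1 replicate gave 0 to 3. DESeq2 on all libraries also called *Foxo4* at CT18 in FoxP1SkmKO mice (adjusted p = 0.0370). Without FoxP1SkmKO KPC replicate 1 at CT18 the *Foxo4* estimate was 0.49 log2, with the library least like the rest as the only KPC mouse. In the arms, the FPKM rule gave 1 call, against 0 with Benjamini-Hochberg adjustment (*Foxo1*, adjusted p = 0.0711), 3 with log2(FPKM + 1), 3 with log2(FPKM + 0.1), 6 with the edgeR sinusoid on counts at the same unadjusted threshold (*Foxo1* in 4 arms, *Foxo3* in 2) and 1 to 3 without 1 replicate. Signs smaller than their SE were not scored, and 2 others turned: *Foxk1* in FoxP1SkmKO against WT controls was -0.0071 log2 without CT26, and *Foxo1* in FoxP1SkmKO against WT KPC mice was -0.039 log2 without CT34. With the replicate block, the calls by time stayed 2 (*Foxk1* adjusted p = 0.00706, *Foxo3* 0.0279), the pooled rhythm 4 and the averaged contrasts 0, and 1103 genes were called at CT26 in WT mice instead of 1121. Over all genes and all alternatives, fits without 1 replicate included, calls ranged from 83 to 794 for KPC in WT (main 280), 3 to 527 in FoxP1SkmKO (67), 268 to 933 for genotype in control mice (538), 0 to 470 for genotype in KPC mice (50), 89 to 1364 at CT26 in WT (1121) and 0 to 176 at CT26 in FoxP1SkmKO mice (6). With no filter, the difference of KPC effects had 104 (main 0) and the rhythm difference of the genotypes 248 (main 0). The cause of these shifts was not tested. Values at single times rest on 2 mice a group, and those of *Foxp1* on 87 to 216 reads per library.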
